A study of Homo sapiens with 9 samples.

Results

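Wild-type APT1 was overexpressed in MDA-MB-231 cells, and the transcriptome of these cells was set against that of control cells. The comparison rested on 6 of the 9 libraries of the series, the 3 labelled APT1wt and the 3 labelled control, which were chosen by these labels and not by any measured value. MDA-MB-231 is an established human line from a breast carcinoma that lacks hormone receptors. All cells were grown in DMEM with Glutamax and 10% fetal bovine serum, and all had been infected with a lentivirus. Control cells expressed a scrambled RNA, the counterpart of the short hairpin used for knockdown. APT1wt cells carried a lentiviral plasmid for overexpression of wild-type APT1. The other 3 libraries came from shAPT1 cells, with a lentiviral hairpin against APT1 kept under puromycin for 72 hours, and they entered the fit and are given beside some values. None of the groups analysed carried an empty overexpression vector. The labels give no selection for control or APT1wt cells, no promoter of the overexpression vector, and not whether a group was 1 clone or a pool. A difference between APT1wt and control can therefore not be told apart from a difference between vectors or between derived lines. Whether libraries of one group stem from different cultures is not stated, and p-values therefore reflect the spread among these libraries, possibly a technical one.

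APT1, the product of LYPLA1, is an acyl-protein thioesterase. The enzyme cleaves the palmitate that anchors proteins such as RAS and G-alpha subunits to membranes, and so acts against the palmitoyltransferases that attach the lipid. Palmitate sets where such proteins sit in the cell, and in dividing cells the enzyme has been studied for its part in the unequal sharing of Notch and Wnt regulators, the subject of this study. Nothing in these data reads out palmitate itself, since only RNA was measured.

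Depth lay between 12381931 and 18667383 estimated reads in the 6 libraries, and 14134 to 14996 genes had at least 10 reads. Mitochondrial transcripts took 5.65% to 7.21% of reads in control and 5.22% to 5.71% in APT1wt. Some markers were as the label of the line has it: VIM, the mesenchymal intermediate filament gene, stood at 2267 TPM in control and 1894 in APT1wt. ESR1 and PGR, the oestrogen and progesterone receptor genes, were below 1 TPM in each library. Other markers were not. SPARC, of the mesenchymal list, was at 1.16 and 2.55 TPM, epithelial CLDN4 at 64.6 and 59.3 TPM and luminal XBP1 at 38.2 and 47.3 TPM. Of 11 hormone receptor and luminal markers 6 were under 1 TPM in all 6 libraries, and of 8 epithelial adhesion markers 3. SPARC, CLDN4 and XBP1 were named after their values were seen. TPM is a transcript's length-corrected share of its library. Log2 fold changes are APT1wt minus control ± SE from edgeR's quasi-likelihood test, with p-values adjusted by Benjamini-Hochberg over all 15233 tested genes and a threshold of 0.05.

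LYPLA1 (ENSG00000120992.17, chromosome 8, 54046367 to 54102017 on the minus strand, GRCh38) was at 87.1, 92.7 and 80.5 TPM in the control libraries and at 169, 171 and 169.9 TPM in APT1wt. The APT1wt libraries lay within 2 TPM of each other and did not overlap the controls, and the ratio of the means was 1.96 (exact two-sided permutation test over 3 and 3 libraries, p = 0.1, the smallest p this design allows). From summed reads the log2 fold change came to 0.60 ± 0.06, adjusted p = 1.1e-05. It was larger, 0.99, adjusted p = 1.1e-05, when the mean length of the transcripts entered the fit, and short transcripts took most of the gain in TPM. In estimated reads most went to the protein-coding transcript ENST00000316963.7, of 2585 bases. It had 620, 754 and 879 reads in control and 1414, 913 and 1332 in APT1wt, with means of 32.0 and 44.4 TPM. The processed transcript ENST00000520718.1, of 577 bases, was at 17.3, 14.3 and 9.05 TPM in control and at 68.1, 63.5 and 67.5 TPM in APT1wt. Its estimated reads were 66.7, 48.7 and 39.65 in control and 334, 216 and 350 in APT1wt. The protein-coding transcript ENST00000521352.5, of 580 bases, was listed at 0 in each control and each shAPT1 library and at 12.9, 10.7 and 17.2 TPM in APT1wt. By contrast ENST00000519272.5 was at 11.4, 13.2 and 12.7 TPM in control and at 4.08, 4.10 and 4.16 TPM in APT1wt. Reads of a transgene that holds only the coding part cannot be told apart from those of annotated transcripts that share it, so these shares say how reads were assigned, not which transcript was made.

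**Figure D1:**
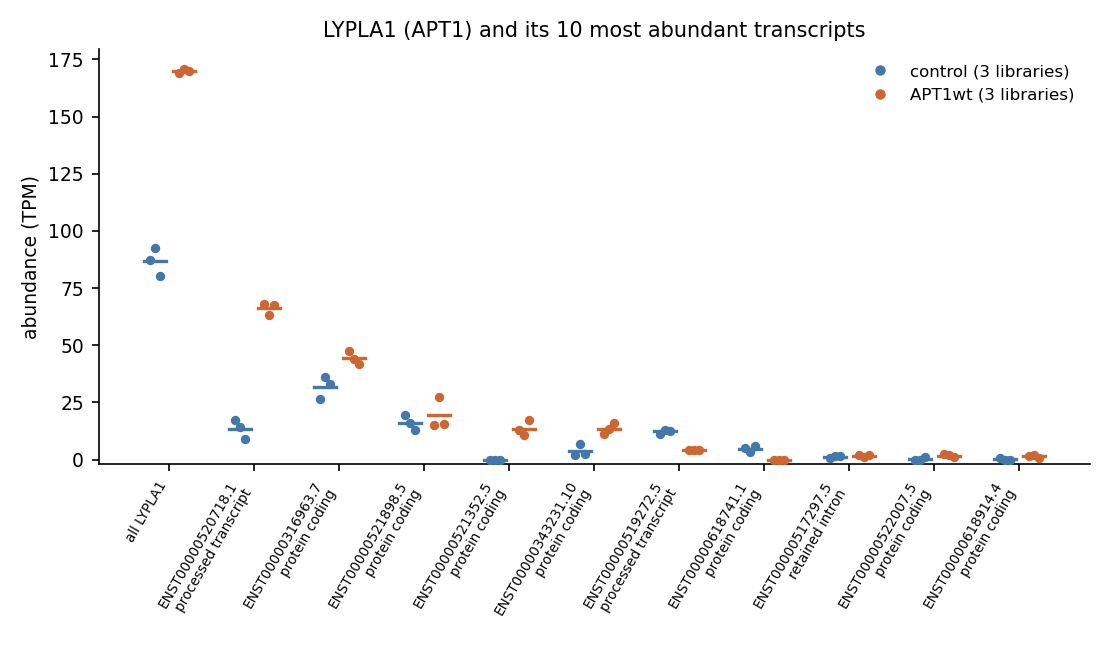
Abundance in TPM of LYPLA1 and of its 10 most abundant transcripts in the 3 control and 3 APT1wt libraries. Points are libraries and bars are means. Most of the gain in TPM, though not in reads, was assigned to the short ENST00000520718.1, with means of 13.6 TPM in control and 66.3 TPM in APT1wt.

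The paralog LYPLA2 (APT2) was at 45.7, 37.8 and 35.7 TPM in control and 45.7, 38.1 and 36.9 TPM in APT1wt, and the groups overlapped (-0.05 ± 0.09, adjusted p = 0.73). Among 10 tested genes for depalmitoylating enzymes and their relatives, LYPLA1 was higher together with 2 others, and none was lower. PPT1, which encodes the lysosomal palmitoyl-protein thioesterase, rose from 68.3 ± 4.6 to 82.9 ± 0.45 TPM (0.31 ± 0.06, adjusted p = 0.0027). ABHD17C, a plasma membrane depalmitoylase gene, rose from 21.6 ± 2.7 to 25.3 ± 2.2 TPM (0.31 ± 0.08, adjusted p = 0.011), but its groups overlapped and the call was lost without APT1wt replicate 2, with transcript length in the fit and in the neighbour correction explained below. Of 22 tested palmitoyltransferase genes, 2 were higher, 5 lower and 15 did not pass. Transferase genes called lower numbered 3 once neighbours were corrected for, and 2 with transcript length in the fit and in the deposited table. ZDHHC20 on chromosome 13 was the most changed, at 75.5, 84.5 and 80.5 TPM in control and 151, 159.8 and 167 TPM in APT1wt (1.06 ± 0.08, adjusted p = 3.7e-07). ZDHHC9, a transferase for RAS proteins on chromosome X, was lower, at 31.4, 35.6 and 34.8 TPM against 20.9, 22.2 and 22.04 TPM (-0.63 ± 0.06, adjusted p = 8.5e-06). Both lie on chromosomes where most tested genes moved the same way, as described below.

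In all, 3568 of 15233 tested genes (23.4%) differed between APT1wt and control. Of these 1796 were higher (11.8% of tested genes) and 1772 lower (11.6%), and 592 (3.89%) differed by at least 2-fold, 325 up and 267 down. At least 4-fold changes were found for 58 genes up and 61 down. The median change of all tested genes was 0.00 and the median absolute change 0.19 on the log2 scale. For 5334 tested genes (35.0%) the TPM of the APT1wt libraries did not overlap that of the controls. Without APT1wt replicate 3 the count of called genes was 2297, the lowest among fits that left out 1 library, and with the length of transcripts in the fit it was 2230. Since many genes differed, the counts of the gene groups below are read against these shares. Where an alternative fit (other than a test against 1.5-fold) or the loss of 1 library moved a count of 3 or more members by over 1.5 times, the other value is given beside it. Counts of 2 or fewer often changed when 1 library was left out, and nothing is read from them.

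Among the genes with the largest gains, ENG, which encodes endoglin, a coreceptor for TGF-beta and BMP ligands, was at 1.79, 3.69 and 4.298 TPM in control and at 18.00, 20.3 and 18.8 TPM in APT1wt (3.09 ± 0.16, adjusted p = 1.6e-08). IGF2, the insulin-like growth factor 2 gene, was at 0.449, 0.569 and 0.9097 TPM in control and at 3.98, 6.897 and 6.73 TPM in APT1wt (3.42 ± 0.26, adjusted p = 4.9e-07). INHBA, which encodes the subunit of activin A, was at 3.25, 3.196 and 3.398 TPM in control and at 18.1, 23.2 and 21.6 TPM in APT1wt (2.60 ± 0.17, adjusted p = 2.2e-07). None of these 3 overlapped between the groups. KCNN3, the gene of a small-conductance calcium-activated potassium channel, rose from 0.478 ± 0.060 to 4.304 ± 0.41 TPM (3.33 ± 0.24, adjusted p = 3.1e-07). For FAM65C the log2 fold change was 3.46, with 3.66, 3.000 and 3.04 TPM in control and 30.1, 39.9 and 36.7 TPM in APT1wt. OLFML3, a secreted olfactomedin-like protein gene, rose from 0.395 ± 0.033 to 4.23 ± 0.68 TPM and IGFN1, known from skeletal muscle, from 2.49 ± 0.45 to 26.2 ± 8.7 TPM. TNS1, which encodes the focal adhesion protein tensin 1, rose from 1.49 ± 0.064 to 7.45 ± 0.62 TPM (2.69 ± 0.15, adjusted p = 3.2e-08), and RPS6KA2, an S6 kinase gene downstream of ERK, from 1.18 ± 0.74 to 5.34 ± 0.66 TPM (2.61 ± 0.13, adjusted p = 1.6e-08). LGALS9, the galectin-9 gene, had 2 reads over the control libraries and 45 over the APT1wt libraries, a ratio of 19.1 after depth with a counting interval of 4.99 to 162. Its log2 fold change was 4.03, 3.40 in the deposited table and 6.80 without control replicate 3.

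Several of these genes were also higher in shAPT1, set against the same control libraries. NPPB, the B-type natriuretic peptide gene, stood at 2.41, 1.81 and 2.11 TPM in control, 14.9, 14.7 and 15.9 in APT1wt and 35.5, 27.2 and 30.5 in shAPT1, so that APT1wt lay between the others. Between APT1wt and shAPT1 3829 genes (25.1%) differed, and for NPPB that difference passed as well (APT1wt minus shAPT1 -0.94 ± 0.13, adjusted p = 1.7e-04). RASEF, a RAB GTPase gene, had log2 fold changes of 3.06 in APT1wt (2.32 with transcript length in the fit and 2.34 in the deposited table) and 3.35 ± 0.20 in shAPT1, and the direct difference did not pass (-0.29 ± 0.14, adjusted p = 0.16). INHBA gave 2.25 ± 0.18 in shAPT1 and a direct difference of 0.36 ± 0.15, adjusted p = 0.090, which did not pass. LYPD6B, at 1.13, 0.126 and 0.295 TPM in control and 2.24, 3.66 and 2.22 TPM in APT1wt, was far higher in shAPT1, at 17.4, 13.8 and 17.5 TPM (direct difference -2.73 ± 0.21, adjusted p = 6.1e-07). Its log2 fold change against control was 2.61, and 3.35 without control replicate 1. ENG, IGF2, KCNN3 and IGFN1 differed between the engineered lines as they did from control. ENG was at 1.63, 2.56 and 3.35 TPM in shAPT1 (direct difference 3.95 ± 0.17, adjusted p = 2.7e-09), IGF2 at 0.911, 0.869 and 0.774 TPM (3.22 ± 0.24, adjusted p = 6.1e-07) and KCNN3 at 0.155, 0.161 and 0.0582 TPM (4.51 ± 0.27, adjusted p = 5.0e-08).

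The largest losses included genes that were nearly silent in APT1wt. GLB1L2, a beta-galactosidase-like gene, fell from 2.61, 1.58 and 1.46 TPM in control to 0, 0.0212 and 0.0254 TPM in APT1wt. It had 120 reads over the control libraries and 2 over the APT1wt libraries, a ratio of 0.0141 after depth with a counting interval of 0.00169 to 0.0522. The fitted log2 fold change was -5.86, and -6.52 with transcript length in the fit. TRIML2 was at 3.38, 3.05 and 4.303 TPM in control and at 0.432, 0.583 and 0.3803 TPM in APT1wt (-3.08 ± 0.31, adjusted p = 8.0e-06). DMBT1, which encodes a mucosal scavenger receptor, fell from 3.14 ± 0.56 to 0.531 ± 0.18 TPM (-2.56 ± 0.26, adjusted p = 9.1e-06), and HTRA1, a secreted serine protease gene, from 16.8 ± 5.5 to 3.58 ± 1.3 TPM (-2.13 ± 0.27, adjusted p = 5.7e-05). GALNT14, an enzyme gene of O-glycosylation, fell from 2.35 ± 1.6 to 0.308 ± 0.096 TPM (-3.02 ± 0.42, adjusted p = 1.5e-04), with control replicate 3 the highest of the controls at 4.12 TPM. RGS7, a G protein regulator gene, fell to 0.179 TPM (-2.90 ± 0.39, adjusted p = 9.7e-05) but was higher than control in shAPT1 (1.66 ± 0.24), with a direct difference of -4.55 ± 0.33, adjusted p = 3.7e-07. CPVL, a carboxypeptidase gene on chromosome 7, and XK and LDOC1 on chromosome X also fell, by 2.20, 2.44 and 2.25 on the log2 scale. In the neighbour correction explained below, these were -1.92, -1.99 and -1.87 and still past the threshold, as was TRIML2 on chromosome 4 (-2.71, adjusted p = 6.5e-05).

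By amount of RNA, the largest gains were those of RPL21 and TPT1, abundant housekeeping genes on chromosome 13. TPT1, which encodes the translationally controlled tumour protein, was at 1781, 1646 and 1741 TPM in control and at 2959, 3103 and 3155 TPM in APT1wt. RPL21, a ribosomal protein gene, rose from 1342 ± 37 to 2693 ± 182 TPM. HMGB1 on chromosome 13, whose chromatin protein is also released as an alarm signal, rose from 679.5 ± 8.0 to 1391 ± 39 TPM. RPL21 and HMGB1 have many processed pseudogenes, so part of their reads is uncertain. Some genes on other chromosomes gained more TPM than HMGB1. Among them MT2A, the metallothionein 2A gene on chromosome 16, rose from 2206 ± 163 to 3132 ± 339 TPM (0.46 ± 0.09, adjusted p = 0.0013) and fell in shAPT1 (-0.75 ± 0.09). Among mitochondrial transcripts MT-ND1 was lower by 0.34 on the log2 scale (adjusted p = 0.029), a call lost with transcript length in the fit and without control replicate 1, APT1wt replicate 2 or APT1wt replicate 3.

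Position on the chromosome moved with many of these changes. On chromosome 13, 202 of 271 tested genes were higher and 1 lower, with a median log2 fold change of 0.66. On chromosome X, 280 of 499 were lower and 5 higher, with a median of -0.37. On chromosome 7, 273 of 756 were lower and 23 higher, with a median of -0.25, and on chromosome 4, 146 of 531 were lower and 22 higher, with a median of -0.17. The shift was alike in each library: the chromosome 13 median, taken against the control mean, was 0.67, 0.66 and 0.68 in the APT1wt libraries and between -0.01 and 0.02 in the controls. In shAPT1 the chromosome 13 median was 0.40, 0.30 and 0.24, and APT1wt minus shAPT1 gave a median of 0.34, with 148 genes higher and 10 lower. On chromosome X the APT1wt libraries were at -0.36, -0.39 and -0.39 and the shAPT1 libraries between -0.14 and -0.12.

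**Figure D2:**
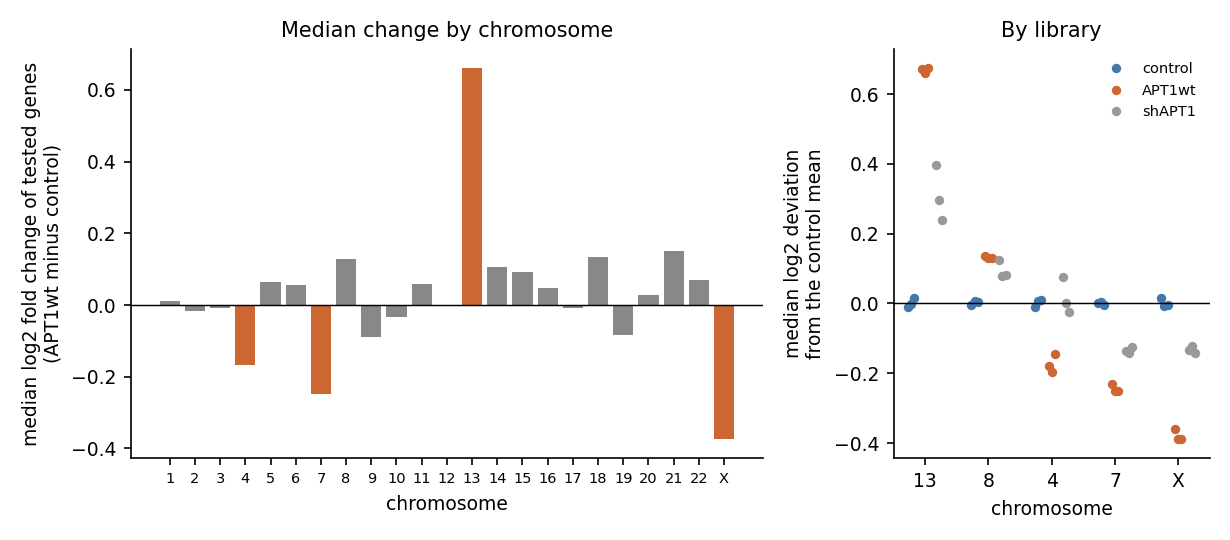
Left, median log2 fold change of tested genes on each chromosome, APT1wt minus control, with chromosomes 4, 7, 13 and X in colour. Right, the median log2 deviation from the control mean in each of the 9 libraries for 5 chromosomes. Chromosome 13 stood at 0.66 and chromosome X at -0.37, and the 3 APT1wt libraries gave nearly the same medians.

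The shift was not even along chromosomes. In 141 windows of 100 neighbouring tested genes, 4 had a median of at least 0.2 and 15 of -0.2 or less. The highest, at 0.82, ran from 19633681 to 43879727 on chromosome 13 (GRCh38), with 85 of 100 genes higher. The next, from 43879284 to 96053482, had a median of 0.58. The lowest, at -0.52, lay on chromosome X from 37349275 to 53434373, and a window from 94249253 to 124372692 on chromosome 8 was at 0.27. The 4 chromosomes 13, X, 7 and 4 held 952 of the called genes (46.3% of their 2057 tested genes), against 2614 of 13132 (19.9%) elsewhere. The rest was not free of shifts. On chromosome 21, 52 of 173 tested genes were higher and 8 lower, and on chromosome 8, 116 of 516 were higher and 26 lower. Medians were 0.15 on chromosome 21, 0.13 on 18, 0.13 on 8 and -0.09 on 9. For changes of at least 2-fold the shares were 6.27% on chromosomes 13, X, 7 and 4 and 3.53% elsewhere. Gene copy number was not measured.

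To read single genes apart from their surroundings, a further fit subtracted, library by library, how far the surrounding tested genes (50 upstream and 50 downstream) deviated at the median. It called 2335 genes (15.3%), 1237 higher (8.12%) and 1098 lower (7.21%), and 487 by at least 2-fold (3.20%). On chromosome 13 it left 23 genes higher and 27 lower, and on chromosome X 50 and 50. The log2 fold changes of TPT1 (0.21, adjusted p = 0.057), RPL21 (0.15, adjusted p = 0.17) and ZDHHC20 (0.18, adjusted p = 0.059) then missed the threshold, while HMGB1 (0.22, adjusted p = 0.034) and ZDHHC9 (-0.27, adjusted p = 0.0096) kept smaller ones. LYPLA1 itself was at 0.56. Values from this fit are called neighbour-corrected below and are given for called genes on these 4 chromosomes, or where the call was lost.

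**Figure D3:**
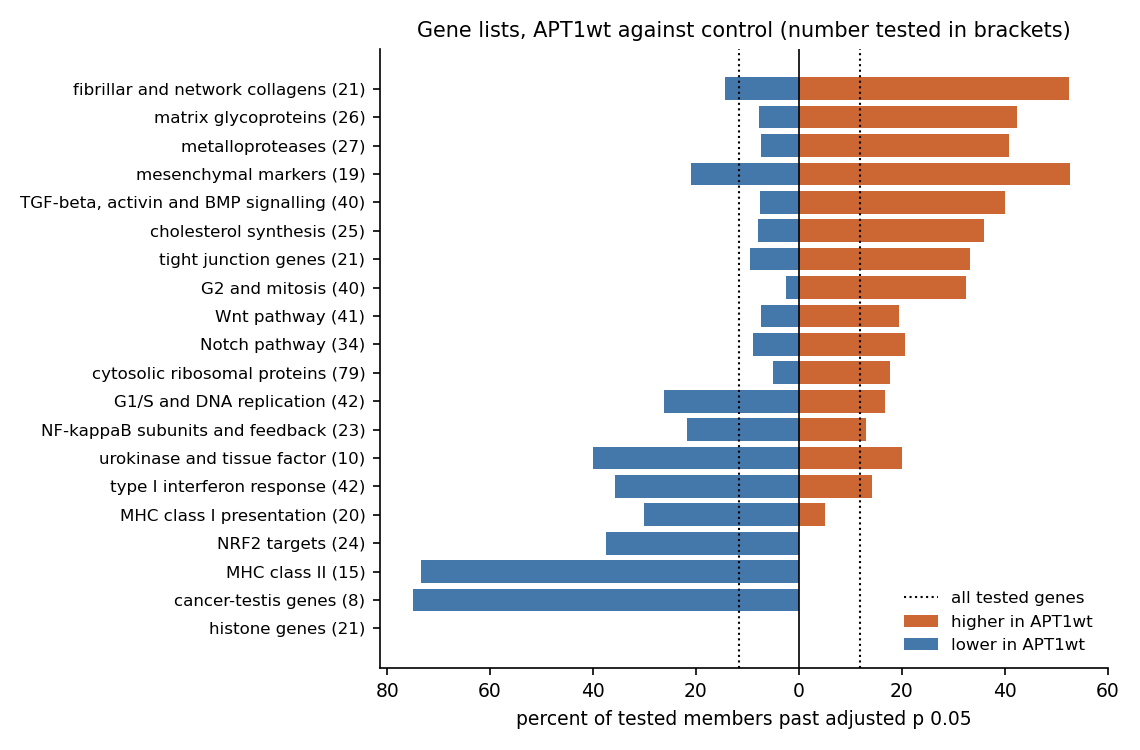
Share of tested members of 20 gene lists that were higher (right) or lower (left) in APT1wt at an adjusted p of 0.05, with the share over all tested genes as dotted lines. Collagen, glycoprotein and metalloprotease lists lay to the right, at 11 of 21, 11 of 26 and 11 of 27 higher, and MHC class II genes to the left, at 11 of 15 lower.

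MHC class II genes were lower as a group. Of 15 tested genes of this antigen presentation pathway, 11 were lower, none was higher and 4 did not pass, with a median of -1.39, beside 11.6% lower among all tested genes. The same count was found in each fit that left out 1 library and once neighbours were corrected for. HLA-DRA, the alpha chain gene of HLA-DR, was at 135, 169 and 162 TPM in control and at 39.8, 52.5 and 45.99 TPM in APT1wt (-1.75 ± 0.10, adjusted p = 2.9e-08). HLA-DRB1, its beta chain gene, was at 62.3, 80.8 and 75.1 TPM and 14.1, 21.1 and 18.8 TPM (-2.01 ± 0.12, adjusted p = 4.8e-08), and the near-identical HLA-DRB5 had a log2 fold change of -1.69, so that reads of both may be shared between them. HLA-DPA1 fell from 53.7 ± 4.6 to 15.2 ± 3.7 TPM, HLA-DPB1 from 16.7 ± 1.4 to 4.02 ± 0.84 TPM and HLA-DQB1 from 8.52 ± 1.5 to 2.74 ± 0.77 TPM. HLA-DMA and HLA-DMB, whose products load peptides, fell by 1.49 and 1.39 on the log2 scale. CD74, the invariant chain gene, was at 356, 462 and 452 TPM in control and at 184, 251 and 251 TPM in APT1wt (-0.87 ± 0.10, adjusted p = 2.9e-05). The groups did not overlap for any of these genes. In bulk RNA, fewer cells that express the class and less RNA per cell cannot be told apart.

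Regulator genes of the class were also among the lower ones. CIITA, the master transactivator of class II genes, was at 10.8, 15.8 and 11.6 TPM in control and at 6.38, 7.88 and 4.96 TPM in APT1wt (-1.004 ± 0.10, adjusted p = 9.9e-06), and RFX5, which encodes a DNA-binding subunit of the regulatory factor X complex, fell from 39.8 ± 0.90 to 31.8 ± 2.5 TPM (-0.37 ± 0.09, adjusted p = 0.0059). HLA-DOA (-0.89), HLA-DQA1 (-0.38), HLA-DOB (0.94) and the cathepsin S gene CTSS (-0.01) did not pass. In shAPT1, compared with the same controls, 12 of the 15 were lower, beside 11.6% of all tested genes. HLA-DRA stood at 57.9, 48.2 and 50.1 TPM there, and its direct difference did not pass (-0.10 ± 0.10, adjusted p = 0.51), while HLA-DPB1 was lower in APT1wt than in shAPT1 (-0.76 ± 0.18, adjusted p = 0.0074) and CIITA higher (0.81 ± 0.12, adjusted p = 1.7e-04). HLA-DRA, HLA-DRB5, CIITA, RFX5 and the members that did not pass were named after their values were seen, as the list was short enough to be given whole.

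Promoters of class II genes carry a conserved module that ends in an inverted CCAAT box, bound by NF-Y next to the RFX complex. The motif ATTGG (or CCAAT on the other strand) was chosen after the class II values were seen. It was found in the 250 bases before the start of 11 of 12 class II genes in the RefSeq promoter table. Of these genes, 8 of 9 with a lower call and 3 of 3 that did not pass held it. Among all 35116 promoters of the same length 32.0% held the motif. A gene counted if any of its promoters held the motif, while the share over all is per promoter, so the measures are not alike. The 110 bases before the start of 3 genes are given below because each holds the motif in a gene that fell, with the motif in capitals (RefSeq, GRCh38.p14, 5′ to 3′ on the gene's strand).
HLA-DQB1, chr6:32666658-32666767, minus strand: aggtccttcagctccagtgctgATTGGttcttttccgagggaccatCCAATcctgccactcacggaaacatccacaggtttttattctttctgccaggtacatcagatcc
HLA-DPB1, chr6:33075880-33075989, plus strand: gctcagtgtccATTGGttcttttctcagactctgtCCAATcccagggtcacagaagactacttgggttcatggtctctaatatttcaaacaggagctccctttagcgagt
HLA-DMA, chr6:32953098-32953207, minus strand: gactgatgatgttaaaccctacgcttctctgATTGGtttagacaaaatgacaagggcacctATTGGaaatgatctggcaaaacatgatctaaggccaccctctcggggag
A match is a run of letters, not a bound site, and no factor was measured.

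Genes of the type I interferon response were more often lower than higher. Of 42 tested, 15 were lower, 6 higher and 21 did not pass, with a median of -0.30. When any 1 library was left out, 10 to 14 were lower and 4 to 7 higher, and once neighbours were corrected for 12 and 5. Interferon genes called higher numbered 3 with transcript length in the fit and in the deposited table. IFI44, an interferon-induced gene, was at 28.9, 29.9 and 26.9 TPM in control and at 11.5, 9.901 and 6.34 TPM in APT1wt (-1.74 ± 0.20, adjusted p = 2.4e-05). OASL, an antiviral gene (-1.57 ± 0.31, adjusted p = 0.0022), fell, as did USP18, the gene of a protease that removes ISG15 and dampens interferon signalling (-1.45 ± 0.35, adjusted p = 0.0077). DDX60, an RNA sensor gene on chromosome 4, fell from 7.09, 5.71 and 5.100 TPM in control to 1.82, 2.03 and 2.02 TPM in APT1wt (neighbour-corrected -1.13, adjusted p = 1.3e-04). None of these 4 passed in shAPT1 against the same controls, and the direct differences passed for IFI44 (-1.54 ± 0.20, adjusted p = 8.0e-05), OASL (-1.54 ± 0.31, adjusted p = 0.0022) and DDX60 (-1.40 ± 0.15, adjusted p = 1.4e-05). Over the whole list, 9 of the 42 genes were higher in shAPT1 than in control and none lower, with a median of 0.21. IFITM3, the most abundant member and a restriction factor gene, overlapped between the groups at 254, 253 and 246 TPM and 229, 274 and 285 TPM (0.09 ± 0.11, adjusted p = 0.63). Higher members were MX1 (0.64), IFI27 (0.44) and BST2 (0.33), antiviral effector genes as well. All 3 calls were lost with transcript length in the fit and in the deposited table, that of BST2 also without APT1wt replicate 2, and that of IFI27 also by DESeq2 and without control replicate 1, control replicate 3, APT1wt replicate 2 or APT1wt replicate 3. These 3 were named after their values were seen.

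A motif of TTTC, any 2 bases and TTTC again (GAAA, any 2 bases and GAAA on the other strand), the core of the interferon-stimulated response element, was searched in the 250 bases before the start. It occurred in 23 of 33 interferon genes with a promoter in the table, against 3.02% of all promoters. Here too a gene counted by any of its promoters, and the share over all is per promoter. It was found in 9 of 11 genes that were lower, 4 of 5 that were higher and 10 of 15 tested genes that did not pass. The 3 promoters below show this: IFI44 and DDX60 fell, and IFITM3, with 2 matches, did not pass. The motif is in capitals, in the 110 bases before the start.
IFI44, chr1:78649679-78649788, plus strand: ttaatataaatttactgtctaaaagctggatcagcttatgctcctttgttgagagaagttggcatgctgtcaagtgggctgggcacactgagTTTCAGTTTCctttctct
DDX60, chr4:168318753-168318862, minus strand: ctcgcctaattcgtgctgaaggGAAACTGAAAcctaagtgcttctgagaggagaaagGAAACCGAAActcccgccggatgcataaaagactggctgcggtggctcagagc
IFITM3, chr11:320861-320970, minus strand: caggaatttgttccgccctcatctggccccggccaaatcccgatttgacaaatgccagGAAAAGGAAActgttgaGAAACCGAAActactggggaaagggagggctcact

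**Figure D4:**
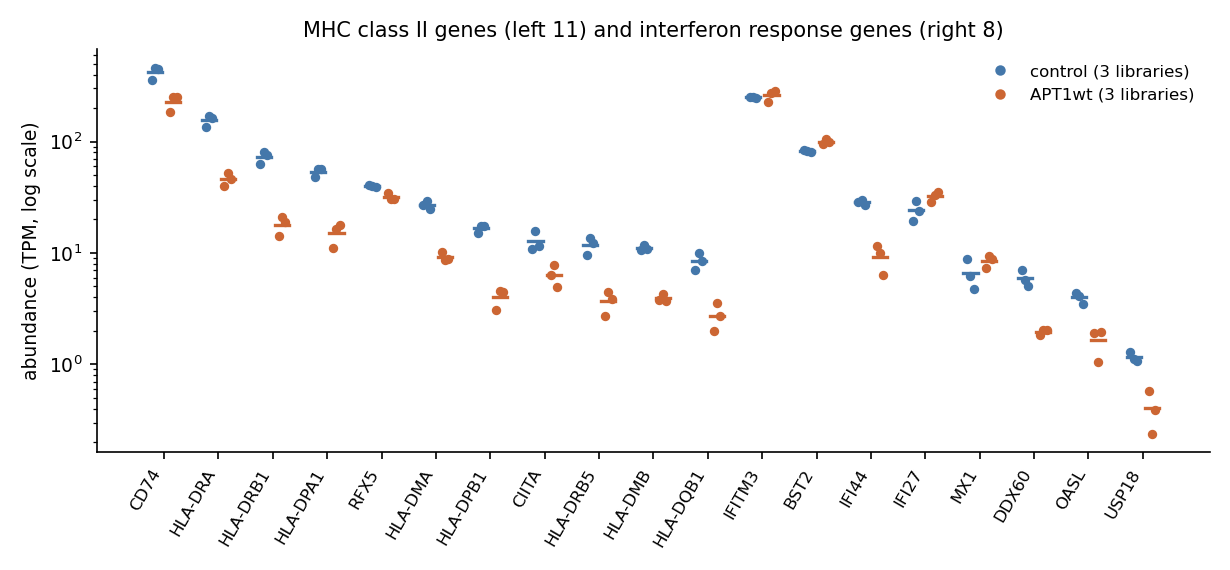
TPM on a log scale of the 11 MHC class II genes that were lower and of 8 interferon response genes, in 3 control and 3 APT1wt libraries. Points are libraries and bars are means. The APT1wt libraries lay below the controls for each class II gene shown, while IFITM3 and MX1 overlapped.

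Of 20 tested genes of MHC class I presentation 6 were lower, 1 higher and 13 did not pass, with a median of 0.00. HLA-B was at 274, 275 and 282 TPM in control and 171, 203 and 211 TPM in APT1wt (-0.45 ± 0.10, adjusted p = 0.0044). HLA-E fell from 111 ± 7.8 to 84.9 ± 2.1 TPM (-0.36 ± 0.06, adjusted p = 4.7e-04) and TAP1, a peptide transporter gene, from 33.6 ± 2.2 to 24.5 ± 1.4 TPM (-0.44 ± 0.07, adjusted p = 5.8e-04). B2M, the common light chain gene and the most abundant member, was at 1184, 1247 and 1261 TPM and 1159, 1353 and 1301 TPM and did not pass (0.05 ± 0.08, adjusted p = 0.68). PSME1, a proteasome activator gene, rose by 0.38, and missed the threshold once neighbours were corrected for (0.14, adjusted p = 0.22).

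Collagen and matrix glycoprotein genes were more often higher than lower. Of 21 tested collagen genes 11 were higher and 3 lower, with a median of 0.47, and 9 were higher and 3 lower once neighbours were corrected for. Collagen genes called higher numbered 7 with transcript length in the fit and in the deposited table. COL7A1, the collagen of anchoring fibrils, was at 51.6, 52.1 and 54.7 TPM in control and at 141, 168 and 140.5 TPM in APT1wt, while shAPT1 was at 42.2, 45.3 and 45.4 TPM (direct difference 1.85 ± 0.06, adjusted p = 5.0e-10). COL4A1 and COL4A2, neighbours on chromosome 13 that encode the main chains of basement membrane collagen, rose from 18.6 ± 2.5 to 50.4 ± 8.1 TPM and from 55.4 ± 2.8 to 126 ± 18 TPM. Their neighbour-corrected changes were 0.89 and 0.62, both past the threshold. COL4A5 on chromosome X was lower on summed reads (-1.08 ± 0.17, adjusted p = 4.0e-04), but its TPM overlapped between the groups and the call was lost with transcript length in the fit and in the deposited table (neighbour-corrected -0.78, adjusted p = 0.0050). Of the crosslinking enzymes, LOX, the lysyl oxidase gene, rose from 8.997 ± 0.51 to 16.7 ± 0.79 TPM and PLOD2, a lysyl hydroxylase gene, from 57.4 ± 2.5 to 81.1 ± 4.9 TPM, while 15 of 18 such genes did not pass.

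Of 26 tested matrix glycoprotein genes 11 were higher and 2 lower. EFEMP2, the fibulin-4 gene of elastic fibre assembly, was at 6.15, 9.32 and 4.89 TPM in control and at 35.97, 31.1 and 33.5 TPM in APT1wt (2.51 ± 0.13, adjusted p = 1.6e-08). LTBP3, which encodes a binding protein for latent TGF-beta, was at 12.9, 9.79 and 12.9 TPM and 38.7, 40.2 and 39.8 TPM (1.75 ± 0.13, adjusted p = 6.3e-07). Both differed from shAPT1 as well (direct differences 2.07 ± 0.12, adjusted p = 4.6e-08, and 0.87 ± 0.12, adjusted p = 1.8e-04). FN1, the fibronectin gene, rose from 38.6 ± 7.8 to 85.1 ± 17 TPM and stood at 116, 80.5 and 87.8 TPM in shAPT1, with a direct difference of -0.09 ± 0.13, adjusted p = 0.66, which did not pass. THBS1, the thrombospondin 1 gene and the most abundant member, was at 304, 463 and 409 TPM in control, 557, 596 and 545 in APT1wt and 1101, 1009.5 and 1009 in shAPT1. FN1 was named after its values were seen. Of 10 laminin genes 2 rose and 2 fell: LAMA5 rose from 69.9 ± 4.2 to 115 ± 8.4 TPM and LAMC1 from 70.7 ± 11 to 101 ± 1.5 TPM, while LAMB3, a chain of epithelial laminin, fell from 196 ± 7.7 to 151 ± 8.9 TPM. LAMA4 was lower (-1.27 ± 0.33, adjusted p = 0.011), a call lost without control replicate 1.

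Metalloprotease genes were more often higher than lower. Of 27 tested genes of MMP, ADAM and ADAMTS families 11 were higher and 2 lower. MMP9, the gelatinase B gene, was at 0.672, 1.18 and 1.38 TPM in control, 3.16, 4.51 and 3.67 in APT1wt and 0.743, 0.864 and 1.11 in shAPT1 (against control 1.80 ± 0.24, adjusted p = 1.1e-04). ADAMTS1 rose from 2.25 ± 0.48 to 5.33 ± 2.2 TPM (1.65 ± 0.16, adjusted p = 6.0e-06) but to 28.4, 28.8 and 32.8 TPM in shAPT1, and ADAMTS9 rose from 2.92 ± 1.0 to 7.51 ± 0.69 TPM (1.32 ± 0.22, adjusted p = 5.5e-04). MMP14, the membrane-type collagenase and the most abundant member, fell from 201 ± 26 to 159 ± 7.1 TPM (-0.32 ± 0.07, adjusted p = 0.0067). Among 24 protease inhibitor genes 4 were higher and 5 lower. Inhibitor genes called lower numbered 3 once neighbours were corrected for and without APT1wt replicate 2 or APT1wt replicate 3. TIMP3, a matrix-bound metalloprotease inhibitor gene, was at 23.2, 28.8 and 24.9 TPM in control and 57.1, 82.00 and 80.1 TPM in APT1wt (1.53 ± 0.15, adjusted p = 4.7e-06). CST1, a secreted cystatin gene, went the other way in the engineered lines, at 4.22, 7.41 and 7.02 TPM in control, 1.81, 1.403 and 1.97 in APT1wt and 27.1, 18.2 and 22.4 in shAPT1 (direct difference -3.56 ± 0.24, adjusted p = 2.0e-07).

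Of 10 tested genes of the urokinase and tissue factor system, 4 were lower and 2 higher. PLAU, the urokinase gene, was at 249, 278 and 278 TPM in control and at 154, 175 and 169 TPM in APT1wt (-0.69 ± 0.09, adjusted p = 5.4e-05). PLAUR, its receptor gene, fell from 211 ± 18 to 158 ± 9.6 TPM and THBD, the thrombomodulin gene, from 19.9 ± 0.64 to 10.8 ± 0.43 TPM. F3, the tissue factor gene, was higher at 341, 368 and 349.8 TPM against 419, 468 and 454 TPM (0.27 ± 0.06, adjusted p = 0.0045), and higher still in shAPT1 (direct difference -0.57 ± 0.06, adjusted p = 1.1e-05).

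**Figure D5:**
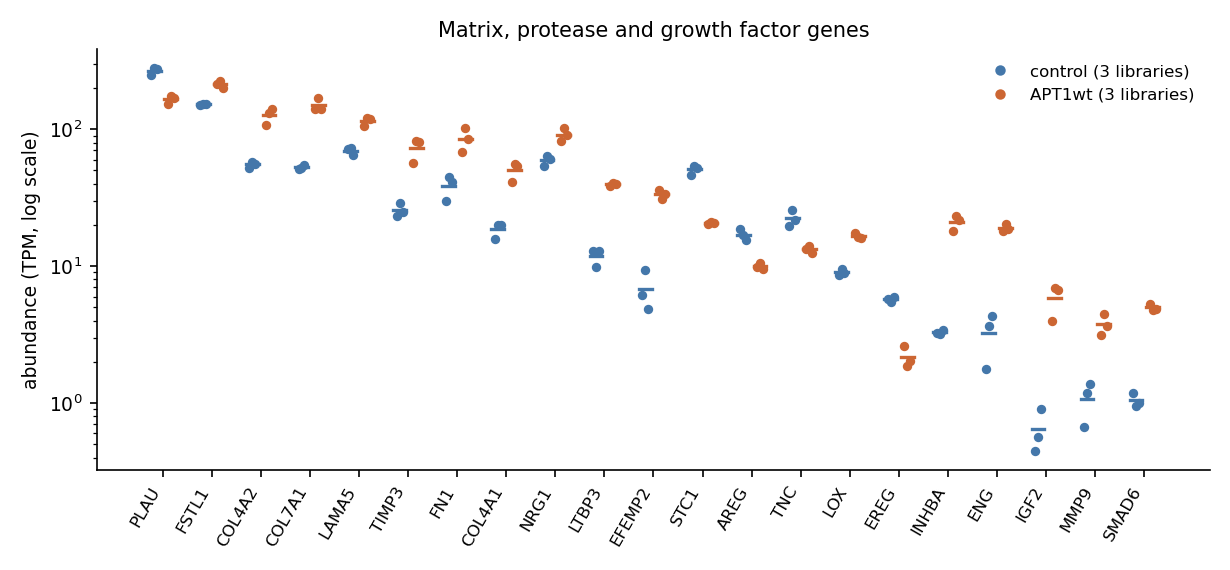
TPM on a log scale of 21 matrix, protease and growth factor genes in 3 control and 3 APT1wt libraries. Points are libraries and bars are means. PLAU, STC1, AREG, TNC and EREG were lower in APT1wt and the other genes shown were higher, without overlap.

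Genes of TGF-beta, activin and BMP signalling were more often higher than lower. TGF-beta family ligands bind paired serine kinase receptors and act through SMAD factors, with coreceptors, latent binding proteins and soluble antagonists around them. Of 40 tested, 16 were higher, 3 lower and 21 did not pass, with a median of 0.18. Of these 15 to 17 were higher when any 1 library was left out, and 12 once neighbours were corrected for. The list moved alike in shAPT1 against the same controls, with 17 higher, 4 lower and a median of 0.22. Among ligands, INHBA lies on chromosome 7, against the direction of its neighbours (neighbour-corrected 2.91, adjusted p = 1.0e-07). TGFB2 was at 64.99, 71.1 and 63.7 TPM in control, 96.98, 105 and 112 in APT1wt and 195, 140.3 and 134 in shAPT1, so that it was lower in APT1wt than in shAPT1 (direct difference -0.46 ± 0.10, adjusted p = 0.0034). Among receptors, besides ENG, TGFBR3, the betaglycan gene, rose from 4.797 ± 0.46 to 9.24 ± 1.6 TPM (1.02 ± 0.12, adjusted p = 3.4e-05) and did not pass in shAPT1 (direct difference 0.94 ± 0.12, adjusted p = 6.4e-05). SMAD6, an inhibitory SMAD gene and BMP target, was at 1.18, 0.956 and 1.003 TPM in control and at 5.300, 4.81 and 4.89 TPM in APT1wt (1.98 ± 0.16, adjusted p = 1.1e-06). FSTL1, a follistatin-like secreted factor gene and the most abundant member, rose from 152 ± 1.8 to 213 ± 13 TPM (0.50 ± 0.07, adjusted p = 1.1e-04).

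Other growth factor axes held genes of both directions. Of 16 genes of the insulin-like growth factor axis 4 were higher and 3 lower. Genes of this axis called higher numbered 2 once neighbours were corrected for. Beside the gain of IGF2, STC1, the stanniocalcin 1 gene, fell from 51.1 ± 4.0 to 20.7 ± 0.34 TPM (-1.31 ± 0.09, adjusted p = 2.7e-07) and fell in shAPT1 too (-1.55 ± 0.09). IGFBP3, a binding protein gene on chromosome 7, fell from 35.2 ± 5.3 to 22.7 ± 2.1 TPM (neighbour-corrected -0.34, adjusted p = 0.035) and rose in shAPT1 (0.58 ± 0.09). IGFBP4, the most abundant member, was at 309, 378 and 379 TPM and 288, 375 and 367 TPM and did not pass (-0.03 ± 0.13, adjusted p = 0.88).

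Of 14 genes of the EGF receptor family and its ligands 5 were lower and 3 higher. EGF family genes called lower numbered 3 once neighbours were corrected for and without APT1wt replicate 2 or APT1wt replicate 3. The ligand genes EREG (epiregulin) and AREG (amphiregulin), both on chromosome 4, fell. EREG was at 5.76, 5.52 and 5.999 TPM in control and 2.63, 1.87 and 2.04 TPM in APT1wt (neighbour-corrected -1.28, adjusted p = 1.2e-04). AREG was at 18.5, 16.9 and 15.6 TPM in control, 9.93, 10.6 and 9.504 in APT1wt and 37.2, 42.3 and 37.8 in shAPT1, lowest in APT1wt and highest in shAPT1 (direct difference -1.90 ± 0.11, adjusted p = 5.8e-08), and its neighbour-corrected change was -0.66, adjusted p = 0.0045. NRG1, the neuregulin 1 gene, rose from 59.7 ± 4.9 to 91.4 ± 10.2 TPM (0.81 ± 0.08, adjusted p = 5.0e-06), as did LRIG1, a negative regulator gene of the receptors, from 16.2 ± 1.4 to 29.1 ± 3.9 TPM. ERRFI1, another feedback inhibitor gene and the most abundant member, rose from 106 ± 1.9 to 129 ± 12 TPM (0.36 ± 0.07, adjusted p = 0.0022). Of 24 genes of the FGF, PDGF, VEGF and HGF axes 8 were higher and 5 lower. Genes of these axes called higher numbered 5 without control replicate 1, APT1wt replicate 1 or APT1wt replicate 2, and 4 with transcript length in the fit, in the deposited table and without control replicate 2 or APT1wt replicate 3. Those called lower numbered 3 with transcript length in the fit, in the deposited table, once neighbours were corrected for and without control replicate 3, APT1wt replicate 2 or APT1wt replicate 3, and 2 without control replicate 2. PGF, the placental growth factor gene, rose from 2.06 ± 0.49 to 7.41 ± 0.68 TPM (1.81 ± 0.23, adjusted p = 5.6e-05), and FGF5 on chromosome 4 fell from 9.05 ± 1.9 to 4.34 ± 0.56 TPM (neighbour-corrected -0.65, adjusted p = 0.0012).

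Mesenchymal and tight junction lists both had more genes higher than lower. Of 19 mesenchymal markers 10 were higher and 4 lower. Markers called lower numbered 2 once neighbours were corrected for. CDH11, a mesenchymal cadherin gene, was at 9.74, 10.4 and 9.56 TPM in control, 21.5, 27.4 and 26.1 in APT1wt and 40.98, 38.95 and 49.8 in shAPT1 (direct difference -0.72 ± 0.08, adjusted p = 1.3e-05). TAGLN, the transgelin gene of smooth muscle, rose from 23.4 ± 2.2 to 50.7 ± 1.5 TPM and was higher again in shAPT1 (direct difference -0.42 ± 0.09, adjusted p = 0.0033). VIM, the most abundant marker, fell (-0.25 ± 0.06, adjusted p = 0.0082) but lay at -0.05, adjusted p = 0.63 once neighbours were corrected for. Of 21 tight junction and related epithelial genes 7 were higher and 2 lower. F11R, the junctional adhesion molecule A gene, rose from 2.75 ± 0.49 to 6.94 ± 0.56 TPM (1.34 ± 0.14, adjusted p = 1.3e-05), OCLN, the occludin gene, from 7.505 ± 1.0 to 13.4 ± 1.0 TPM (0.87 ± 0.09, adjusted p = 1.1e-05) and ESRP2, an epithelial splicing factor gene, from 2.11 ± 0.22 to 4.799 ± 0.88 TPM (1.14 ± 0.15, adjusted p = 6.2e-05).

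Of 10 desmosome genes 3 were higher and 1 lower. Desmosome genes called higher numbered 5 with the 6 libraries alone, and 1 without control replicate 1, control replicate 2, control replicate 3, APT1wt replicate 2 or APT1wt replicate 3. DSP, the desmoplakin gene, was at 6.63, 7.67 and 7.401 TPM in control, 16.9, 19.4 and 18.9 in APT1wt and 19.2, 16.3 and 18.2 in shAPT1, so both engineered lines lay above control, with a direct difference of 0.11 ± 0.07, adjusted p = 0.27. DSG2, a desmosomal cadherin gene, fell from 31.9 ± 3.9 to 19.5 ± 0.61 TPM (-0.69 ± 0.07, adjusted p = 9.1e-06). Of 10 keratin genes 4 were higher and 2 lower. KRT7 was at 222, 255 and 257 TPM and 342, 394 and 370.5 TPM (0.56 ± 0.07, adjusted p = 4.5e-05) and KRT18, a keratin of simple epithelia, rose from 229 ± 6.0 to 336 ± 12 TPM, while KRT15, a basal keratin gene, was lower on summed reads (-1.66 ± 0.21, adjusted p = 6.1e-05), with TPM that overlapped. Of 11 transcription factors of epithelial plasticity 3 were higher and 3 lower. These factors called higher numbered 1 without control replicate 3. SNAI1 was higher (1.07 ± 0.27, adjusted p = 0.011), a call lost without control replicate 3 or APT1wt replicate 3. KLF4 fell from 11.6 ± 0.52 to 8.07 ± 0.69 TPM (-0.54 ± 0.10, adjusted p = 0.0014). KLF5 on chromosome 13 rose (0.55 ± 0.09, adjusted p = 3.1e-04), but was at -0.01, adjusted p = 0.92 once neighbours were corrected for. ZEB1, the main mesenchymal repressor gene and the most abundant of the list, did not pass (-0.15 ± 0.07, adjusted p = 0.16).

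Of 18 cadherin and protocadherin genes 6 were higher and 1 lower. FAT3 was at 2.25, 3.604 and 2.25 TPM in control and 11.3, 8.09 and 6.02 TPM in APT1wt, and PCDH1 rose from 0.351 ± 0.28 to 1.65 ± 0.36 TPM (1.95 ± 0.45, adjusted p = 0.0062, with a log2 fold change of 2.61 without control replicate 3). Of 15 integrin genes 3 were higher and none lower. ITGB4, the hemidesmosome integrin gene, was at 19.99, 18.3 and 18.2 TPM in control and 35.2, 41.7 and 47.3 TPM in APT1wt (1.17 ± 0.17, adjusted p = 2.2e-04). ITGB3 rose from 1.18 ± 0.48 to 3.35 ± 0.39 TPM (1.38 ± 0.23, adjusted p = 5.5e-04), while ITGB1, the most abundant, did not pass (-0.02 ± 0.07, adjusted p = 0.88). SDC2, a heparan sulfate proteoglycan gene, rose from 11.4 ± 0.82 to 35.2 ± 5.8 TPM (1.70 ± 0.11, adjusted p = 1.1e-07) and was higher in shAPT1 still, at 51.3, 55.6 and 54.9 TPM. GPC6, a glypican gene on chromosome 13, rose from 1.28 ± 0.21 to 3.18 ± 0.36 TPM (neighbour-corrected 0.70, adjusted p = 8.0e-04). Of 23 contractile genes 8 were higher and 1 lower. Contractile genes called higher numbered 5 with transcript length in the fit, in the deposited table and without control replicate 3 or APT1wt replicate 2, 4 without control replicate 1, control replicate 2 or APT1wt replicate 1, and 3 without APT1wt replicate 3. MYH10, the non-muscle myosin heavy chain IIB gene, rose from 22.6 ± 1.5 to 46.97 ± 7.4 TPM (1.09 ± 0.06, adjusted p = 3.5e-08), and SMTN, the smoothelin gene, fell from 81.8 ± 3.5 to 59.95 ± 3.0 TPM (-0.49 ± 0.07, adjusted p = 2.4e-04).

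For Notch and Wnt genes, the subject of the study, the shares called were 29.4% and 26.8%, near the 23.4% over all tested genes. Of 34 tested Notch pathway genes 7 were higher, 3 lower and 24 did not pass. Notch genes called higher numbered 4 without control replicate 3, 3 with transcript length in the fit, in the deposited table and without control replicate 1, control replicate 2 or APT1wt replicate 3, and 2 without APT1wt replicate 2. Those called lower numbered 7 with the 6 libraries alone, and 5 with library totals alone. LFNG, a Fringe glycosyltransferase gene on chromosome 7 that modifies Notch, was at 6.01, 6.37 and 6.97 TPM in control, 8.14, 12.2 and 9.26 in APT1wt and 3.92, 3.04 and 4.36 in shAPT1 (against control 0.55 ± 0.14, adjusted p = 0.0096, a call lost without APT1wt replicate 2, with a direct difference of 1.502 ± 0.15, adjusted p = 6.7e-06). The neighbour-corrected change was 0.75, adjusted p = 0.0013. The target gene HES1 overlapped between the groups (0.59 ± 0.20, adjusted p = 0.043), and its call was lost in 5 of 6 fits that left out 1 library, with library totals alone and with transcript length in the fit. NRARP, a feedback target gene, was at 2.47, 2.69 and 2.898 TPM and 3.11, 5.61 and 4.09 TPM (0.65 ± 0.21, adjusted p = 0.036), a call also lost in 5 of these 6 fits, with transcript length in the fit, by DESeq2 and by limma-voom. Of 41 tested Wnt pathway genes 8 were higher and 3 lower. Wnt genes called higher numbered 5 without control replicate 3 or APT1wt replicate 3. Those called lower numbered 1 once neighbours were corrected for. LGR4, an R-spondin receptor gene, was at 4.79, 6.02 and 5.99 TPM in control and 15.2, 11.7 and 10.5 TPM in APT1wt (1.17 ± 0.11, adjusted p = 3.2e-06) and rose in shAPT1 as well (0.98 ± 0.11, direct difference 0.19 ± 0.10, adjusted p = 0.18). The ligand gene WNT10A was at 0.743, 1.02 and 0.496 TPM in control, 2.22, 3.597 and 2.61 in APT1wt and 0.726, 0.889 and 0.871 in shAPT1 (direct difference 1.73 ± 0.25, adjusted p = 1.7e-04). DKK1, a secreted Wnt antagonist gene and the most abundant of the list, rose from 185 ± 3.4 to 228 ± 9.7 TPM, less than in shAPT1 (direct difference -1.29 ± 0.06, adjusted p = 5.8e-09).

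Of 28 tested cytokine and receptor genes 6 were higher and 3 lower. Those called lower numbered 5 with no filter on low counts. IL24, an IL-10 family cytokine gene, was at 59.4, 42.8 and 51.1 TPM in control and at 22.7, 13.4 and 10.7 TPM in APT1wt (-1.83 ± 0.25, adjusted p = 1.1e-04). CSF3, the G-CSF gene, was at 32.7, 38.2 and 38.5 TPM in control, 70.02, 68.98 and 67.2 in APT1wt and 5.64, 1.39 and 1.66 in shAPT1, highest in APT1wt and lowest in shAPT1 (against control 0.89 ± 0.19, adjusted p = 0.0035, direct difference 4.83 ± 0.27, adjusted p = 2.5e-08). Its call against control was lost by DESeq2 and in the deposited table. CXCL1, a neutrophil attractant gene and the most abundant chemokine gene, did not pass (0.87 ± 0.50, adjusted p = 0.24). Of 23 NF-kappaB subunit and feedback genes 5 were lower and 3 higher. NF-kappaB genes called higher numbered 5 with no filter on low counts and with the 6 libraries alone, 1 with transcript length in the fit, in the deposited table and without control replicate 3, and none without APT1wt replicate 3. Those called lower numbered 8 with the 6 libraries alone, and 3 in the deposited table and without APT1wt replicate 3. TNIP3, a feedback inhibitor gene on chromosome 4, fell from 12.2 ± 0.57 to 4.08 ± 0.64 TPM (neighbour-corrected -1.32, adjusted p = 0.0081, a call lost in the deposited table) and RELB, a subunit of the alternative pathway, from 25.1 ± 1.0 to 16.2 ± 0.52 TPM (-0.54 ± 0.10, adjusted p = 0.0010). Of 35 MAPK feedback and immediate early genes 6 were lower and 2 higher, a share called of 22.9%, near the 23.4% over all tested genes. EGR1, an immediate early gene, was at 2.06, 1.87 and 2.44 TPM in control, 1.34, 0.821 and 1.07 in APT1wt and 4.72, 4.82 and 4.53 in shAPT1 (direct difference -2.01 ± 0.18, adjusted p = 2.2e-06). SPRED3, a RAS pathway inhibitor gene, fell from 6.41 ± 1.1 to 2.94 ± 0.55 TPM, while DUSP10, a phosphatase gene for stress kinases, rose from 18.4 ± 0.93 to 27.9 ± 2.5 TPM.

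Of 24 antioxidant genes driven by NRF2 9 were lower and none higher, with a median of -0.20, and 11 were lower once neighbours were corrected for. NRF2 targets called lower numbered 5 without control replicate 3, 4 with transcript length in the fit, in the deposited table and without control replicate 1, and 3 without APT1wt replicate 2 or APT1wt replicate 3. More of them were lower in shAPT1 against the same controls, 16 of 24 with none higher and a median of -0.45. AKR1C1, an aldo-keto reductase gene, was at 4.75, 4.195 and 5.09 TPM in control and at 2.21, 0.0599 and 0.964 TPM in APT1wt, and its log2 fold change was -2.07 in all libraries, -2.93 without APT1wt replicate 1 and -2.79 in the deposited table. AKR1C3 fell from 16.4 ± 3.5 to 7.84 ± 2.4 TPM (-1.06 ± 0.20, adjusted p = 0.0014). SLC7A11, the cystine transporter gene, was at 34.3, 31.7 and 34.7 TPM and 26.6, 11.2 and 12.1 TPM (-0.89 ± 0.23, adjusted p = 0.011), a call lost without APT1wt replicate 2 or 3 and once neighbours were corrected for (-0.66, adjusted p = 0.068). FTL, the ferritin light chain gene and the most abundant target, did not pass (-0.20 ± 0.14, adjusted p = 0.32). Outside the NRF2 list, PHGDH, the gene of the first enzyme of serine synthesis, rose from 7.42 ± 0.49 to 23.8 ± 3.2 TPM (1.76 ± 0.25, adjusted p = 1.8e-04). Its direct difference from shAPT1 was 0.62 ± 0.23, adjusted p = 0.059.

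Of 25 cholesterol synthesis genes 9 were higher and 2 lower, and the lower ones lie on chromosome X. Cholesterol genes called higher numbered 5 with transcript length in the fit and in the deposited table. EBP on chromosome X fell from 82.3 ± 3.3 to 57.5 ± 1.7 TPM but was at -0.02, adjusted p = 0.86 once neighbours were corrected for. Of 22 fatty acid genes 2 were higher and 5 lower. Fatty acid genes called lower numbered 2 once neighbours were corrected for. ACSL1, a fatty acid activating enzyme gene on chromosome 4, was at 27.6, 32.3 and 30.8 TPM in control and 18.2, 19.9 and 19.7 TPM in APT1wt (neighbour-corrected -0.23, adjusted p = 0.037). Of 35 hypoxia and glycolysis genes 8 were higher and 2 lower. Hypoxia and glycolysis genes called higher numbered 5 with library totals alone, with transcript length in the fit, in the deposited table and without control replicate 2 or control replicate 3, and 4 once neighbours were corrected for and without APT1wt replicate 2 or APT1wt replicate 3. PFKFB4, a regulator of glycolytic flux, was at 11.5, 8.52 and 8.503 TPM in control and 33.2, 23.4 and 26.7 TPM in APT1wt, against 10.1, 10.1 and 11.5 TPM in shAPT1 (direct difference 1.18 ± 0.12, adjusted p = 8.7e-06). ADM, the adrenomedullin gene, was at 64.9, 58.8 and 61.5 TPM and 103, 109 and 107 TPM. GAPDH, the most abundant, did not pass (0.16 ± 0.09, adjusted p = 0.21). Of 22 amino acid transporter genes 6 were higher and 1 lower. SLC1A3, a glutamate and aspartate transporter gene, rose from 7.45 ± 1.2 to 15.1 ± 1.8 TPM (1.08 ± 0.12, adjusted p = 1.7e-05), and SLC7A1, a cationic amino acid transporter gene on chromosome 13, from 77.4 ± 6.5 to 135 ± 5.5 TPM, with a neighbour-corrected change of 0.00, adjusted p = 0.98.

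In the cell cycle lists mitotic genes were more often higher, 13 of 40 with 1 lower and a median of 0.10. Mitotic genes called higher numbered 8 with library totals alone, with transcript length in the fit, in the deposited table and without control replicate 3, and 6 without control replicate 1, APT1wt replicate 2 or APT1wt replicate 3. KIF20A, a kinesin gene of cytokinesis, was at 66.1, 83.01 and 75.8 TPM in control and 101, 108 and 103 TPM in APT1wt (0.48 ± 0.06, adjusted p = 7.7e-05). CKAP2, a spindle protein gene on chromosome 13, rose from 122 ± 3.9 to 206 ± 7.2 TPM (neighbour-corrected 0.20, adjusted p = 0.019). UBE2C, the most abundant member, did not pass (0.08 ± 0.06, adjusted p = 0.43). Of 42 genes of G1/S and replication 7 were higher and 11 lower, and 4 and 5 once neighbours were corrected for. Genes of this list called higher numbered 4 without APT1wt replicate 2. RFC3 on chromosome 13 and POLA1 on chromosome X, both replication genes, moved with their chromosomes, by 0.93 and -0.46, and were at 0.13 and -0.04 after it. E2F1, a transcription factor gene of S phase entry, fell from 52.6 ± 2.2 to 39.3 ± 2.0 TPM (-0.41 ± 0.07, adjusted p = 0.0012), and CDKN1A, the p21 inhibitor gene, from 59.7 ± 6.8 to 39.7 ± 3.7 TPM (-0.59 ± 0.13, adjusted p = 0.0044).

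Of 79 ribosomal protein genes 14 were higher and 4 lower, and 7 and 0 once neighbours were corrected for. The share called, 22.8%, was near the 23.4% over all tested genes. Ribosomal protein genes called higher numbered 22 with the 6 libraries alone, 9 without control replicate 3 or APT1wt replicate 1, and 8 without control replicate 2 or APT1wt replicate 3. Those called lower numbered 8 with library totals alone and with the 6 libraries alone, and 2 without APT1wt replicate 2. RPS12 was at 1053, 916 and 910 TPM in control and 1289, 1230 and 1247 TPM in APT1wt (0.39 ± 0.08, adjusted p = 0.0024). RPL35, the most abundant of the list, did not pass (-0.13 ± 0.09, adjusted p = 0.34). None of 21 histone genes and none of 9 S100 genes passed by edgeR, and 0 of both lists passed by DESeq2. At an unadjusted p under 0.05, 3 histone genes and 3 S100 genes were counted, beside 5344 of all 15233 tested genes.

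Cancer-testis genes, which are silent in most adult tissues and active in many tumours, were lower. Of 8 tested, 6 were lower and none higher, and all of the lower ones lie on chromosome X. Cancer-testis genes called lower numbered 3 once neighbours were corrected for. The list was lower in shAPT1 too, set against the same controls. There 7 of the 8 were lower and 1 higher, with a median of -1.05, beside -0.82 in APT1wt. MAGEC2 was at 2.69, 3.26 and 2.39 TPM in control and at 0.0895, 0 and 0.0834 TPM in APT1wt, from 146 reads over the controls to 4 over the APT1wt libraries (neighbour-corrected -4.90, adjusted p = 7.9e-06). PAGE5 was at 15.6, 10.6 and 14.7 TPM in control and at 0.449, 0.471 and 0.426 TPM in APT1wt, from 144 reads to 5 (log2 fold change -4.94, -4.24 in the deposited table, neighbour-corrected -4.56, adjusted p = 8.1e-06). Both lay between these levels in shAPT1, MAGEC2 at 1.52, 0.895 and 1.23 TPM and PAGE5 at 7.900, 5.11 and 5.09 TPM, and both direct differences passed (-4.01 ± 0.49, adjusted p = 4.9e-05, and -3.67 ± 0.46, adjusted p = 6.2e-05). The abundant members XAGE1A, XAGE1B and SPANXB1 fell by 0.69, 0.62 and 0.67 on the log2 scale and were at -0.20, -0.13 and -0.28 after the correction, below the threshold. XAGE1A and XAGE1B are near-identical copies, so their reads cannot be assigned with certainty.

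Of 50 axon guidance genes 12 were higher and 10 lower. Guidance genes called higher numbered 7 once neighbours were corrected for and without control replicate 2, control replicate 3 or APT1wt replicate 2, 6 without APT1wt replicate 3, and 5 with transcript length in the fit and in the deposited table. Semaphorin genes on chromosome 7 were among the lower ones. SEMA3A, which encodes a repulsive guidance cue, was at 1.94, 2.19 and 3.83 TPM in control, 0.376, 0.3903 and 0.596 in APT1wt and 6.33, 4.82 and 3.297 in shAPT1 (direct difference -2.87 ± 0.18, adjusted p = 1.1e-07), and its neighbour-corrected change was -1.72, adjusted p = 4.9e-05. SEMA3D fell from 2.37 ± 0.26 to 0.884 ± 0.085 TPM (neighbour-corrected -1.13, adjusted p = 5.7e-04). EFNA1, the ephrin A1 gene, rose from 2.104 ± 0.87 to 6.64 ± 1.2 TPM (1.49 ± 0.26, adjusted p = 7.5e-04). Of 19 potassium channel genes 6 were higher and 1 lower. Beside KCNN3, KCNS3 rose from 1.16 ± 0.10 to 2.41 ± 0.21 TPM (1.28 ± 0.22, adjusted p = 7.6e-04), while KCNN4, the intermediate-conductance channel and the most abundant, did not pass (-0.06 ± 0.15, adjusted p = 0.82).

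Among genes that encode no protein, AFAP1-AS1, an antisense RNA on chromosome 4, fell from 3.77, 4.797 and 4.84 TPM in control to 0.417, 0.559 and 0.433 TPM in APT1wt (-3.26 ± 0.14, adjusted p = 4.0e-09). It did not pass in shAPT1 against control, at 3.99, 3.94 and 4.42 TPM (direct difference -3.07 ± 0.14, adjusted p = 3.5e-09). The neighbour-corrected change was -3.17, adjusted p = 4.0e-09. Without strand information its reads cannot be told apart from those of the overlapping gene. LINC02170 was at 6.44, 5.29 and 5.66 TPM and 0.199, 0.821 and 1.83 TPM (-3.19 ± 0.31, adjusted p = 5.0e-06). SNHG18, a small nucleolar RNA host gene, was at 1.28, 0.929 and 0.822 TPM in control, 5.16, 6.67 and 6.55 in APT1wt and 6.21, 7.35 and 6.38 in shAPT1, higher in both engineered lines, with a direct difference of -0.01 ± 0.17, adjusted p = 0.97.

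Markers of other cell types were read beside these groups. Of 15 leukocyte markers 11 were under 1 TPM in all 6 libraries, among them the defining PTPRC, CD3E and MS4A1, and the summed level was 632 to 748 TPM in control and 396 to 434 TPM in APT1wt. Most of that sum was CD74 and HLA-DRA, which are themselves class II genes, and CD68. LCP1, a plastin gene on chromosome 13, rose from 10.1 ± 0.69 to 61.9 ± 8.9 TPM (neighbour-corrected 1.95, adjusted p = 2.5e-09). Endothelial markers summed to 79.04 to 89.1 TPM in control and 145 to 163 TPM in APT1wt, carried by ESAM, which rose from 43.4 ± 5.5 to 99.7 ± 1.2 TPM, and ROBO4, which rose from 33.9 ± 1.5 to 48.4 ± 9.2 TPM. KDR on chromosome 4, the gene of a VEGF receptor, fell from 1.48 ± 0.22 to 0.898 ± 0.13 TPM (-0.55 ± 0.18, adjusted p = 0.036). It missed the threshold by DESeq2, once neighbours were corrected for (-0.51, adjusted p = 0.069) and without control replicate 2, APT1wt replicate 2 or APT1wt replicate 3. CDH5, VWF and TEK were under 1 TPM. Fibroblast markers summed to 17.9 to 21.1 and 20.8 to 24.7 TPM, with COL3A1, DCN and LUM under 1 TPM. COL1A1, the type I collagen gene (0.54 ± 0.13, adjusted p = 0.0076), and PDGFRB, a PDGF receptor gene (1.14 ± 0.21, adjusted p = 0.0015), rose, and both calls were lost with transcript length in the fit and in the deposited table. Adipocyte markers summed to 15.9 to 17.6 and 28.98 to 31.6 TPM, from PPARG, which rose from 15.1 ± 0.76 to 24.2 ± 0.39 TPM, and LPL, from 1.27 ± 0.36 to 5.88 ± 1.7 TPM, while ADIPOQ and PLIN1 were under 1 TPM. LCP1, ESAM, ROBO4, KDR, COL1A1, PDGFRB, PPARG and LPL were named after their values were seen, and the part of any of these cell types in the results was not tested. Of 11 markers of HEK293 cells, the usual packaging line for lentivirus, 8 were under 1 TPM in all 6 libraries. Their sum of 30.3 to 40.6 and 29.2 to 40.3 TPM came mostly from L1CAM, which did not pass, and GATA2. GATA2 rose from 10.3 ± 1.8 to 15.5 ± 2.1 TPM (adjusted p = 0.0016) and CDK5R1 fell from 4.51 ± 0.56 to 3.6 ± 0.24 TPM (adjusted p = 0.0496). The CDK5R1 call was lost with transcript length in the fit and once neighbours were corrected for. These 3 were also named after their values were seen.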

How the data were processed

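RNA of 9 MDA-MB-231 libraries was sequenced, 3 each of control, APT1wt and shAPT1. The authors deposited estimated counts and TPM per transcript from Salmon, and a gene table of scaled signal whose scaling step is not given in the sources used here. GRCh38.p10, FastQC, Salmon and DESeq2 are named, without versions, per the submitters' processing notes. Estimated counts were summed per gene and rounded, and TPM was summed per gene. Genes were kept by filterByExpr (15233 of 58219), scaled by TMM and tested over all 9 libraries with edgeR 4.0.16 (limma 3.58.1, R 4.3.3) by its quasi-likelihood test, with a Benjamini-Hochberg threshold of 0.05. SEs belong to log2 fold changes, and ± beside TPM is an SD over 3 libraries. Intervals of read ratios are exact at 95% and cover counting error only.

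Positions came from GENCODE 29, which matched 15189 genes, and promoters from RefSeq, GRCh38.p14. Replicate numbers were not used to pair the libraries, and what they mark is not stated. The members and gene lists were chosen with earlier results of these data known. Genes were named by rule: the 15 largest fold changes and 10 largest TPM differences each way among protein-coding genes whose groups did not overlap, 4 each way among other genes, and up to 4 called genes and the most abundant gene of each list. The text says where a gene falls outside it. Some genes that the rule takes are not reported here. The medians of each chromosome by library and the ATTGG search were chosen after seeing the data. Alternatives were DESeq2 1.42.0, limma-voom, RLE scaling, library totals, other filters, transcript length, the deposited table, a test against 1.5-fold, neighbouring genes, the 6 libraries alone, a replicate block and leaving out each library. The code was tested on simulated data.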

Additional observations from a re-analysis of the deposited data

How the results depend on the processing

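The count of 3568 genes fell to 2230 with transcript length in the fit (1141 higher, 1089 lower), to 2236 in the deposited table (1164 higher, 1072 lower), to 364 in a test against 1.5-fold (220 higher, 144 lower, 311 by at least 2-fold) and to 2335 with neighbours corrected for (1098 lower). In the test against 1.5-fold LYPLA1, at 0.60, missed the threshold, and 50 genes on chromosome 13 were higher and 25 on chromosome X lower. With neighbours corrected for these counts were 23 and 50. Library totals alone gave 1487 higher and 2057 lower of 3544, with a median of -0.04, beside 1796 and 1772. When 1 library was left out, 2297 to 2987 genes were called, 1164 to 1491 higher, 1133 to 1496 lower and 508 to 596 by at least 2-fold; 191 to 199 on chromosome 13 were higher, 225 to 247 on chromosome X lower, and 11 MHC class II genes lower in each. LYPLA1 kept its direction and call there. The fit with a replicate block called 3625 genes. Replicate numbers gave correlations of 0.10, 0.06 and -0.01 between APT1wt and control, so they were not used as pairs. What the numbers mark is not stated. DESeq2 called 3184, and the fit of the 6 libraries alone 4677. KLF5 changed sign with neighbours corrected for, to -0.015. The cause was not tested where a value moved.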
